A study of Mus musculus with 22 samples.

Results

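The 10 genes described here are regulators and target genes of the transcriptional coactivators YAP and TAZ together with members of the CCN family of matricellular proteins, followed in mouse ulnae of which one limb had been loaded mechanically. They were chosen by name from what is known of the pathway, with earlier results of these data known: Yap1 and Wwtr1 (the gene of TAZ), Vgll4, Ankrd1, Amotl2, and Ccn1 to Ccn5, whose older symbols are Cyr61, Ctgf, Nov, Wisp1 and Wisp2. All 10 were found among the 25471 genes of the count tables, and all 10 passed the filter on low counts that left 18793 genes for testing. Ccn6 was not analysed here.

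The material was total RNA from the middle part of the ulna, which is a bone of the forearm, and it came from 11 mice. From each mouse came a right limb that had been loaded and a left limb that had not, which gives 22 libraries, 1 per limb. 7 mice were wildtype (WT: mice 685, 686, 687, 690, 692, 694 and 699) and 4 were labelled Tlr4 conditional knockout (CKO: mice 688, 691, 693 and 698). Tlr4 is the receptor for bacterial lipopolysaccharide, and the series title ties its knockout to osteoblasts. The sources used here name no Cre driver, strain, age, sex, loading regime or time of harvest. Each replicate was a separate animal, so the spread between libraries of a group includes that between mice.

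Libraries held 21999891 to 42833729 counts. Tlr4 averaged 29.2 to 33.4 CPM (counts scaled to 1000000 per effective library) in the 4 groups and did not part the genotypes; its counts cover the whole gene, so they do not check the labels. Ltbp2, a gene chosen here for its values, did part the genotypes except in 2 libraries, those labelled WT loaded 686 at 380 CPM and CKO loaded 688 at 38.4 CPM. The other WT libraries lay between 26.5 and 73.5 CPM and the other CKO libraries between 205 and 344 CPM. Whether these 2 libraries were exchanged was not tested. The results below use all libraries as labelled, and leaving out mice 686 and 688 put no member past the adjusted threshold in any comparison. All 12 genes of a list for osteoblasts and osteocytes were detected in every library and took 0.330 to 3.41% of the counts. All 15 genes of a skeletal muscle list were also detected in every library and took 2.82 to 15.9%, so that muscle RNA was present in every bone sample.

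YAP and TAZ carry mechanical signals to the nucleus. When cells spread, stretch or meet a stiff matrix, the coactivators escape phosphorylation by the Hippo kinases, enter the nucleus and bind TEAD transcription factors, which switch on target genes such as Ccn1, Ccn2, Ankrd1 and Amotl2. VGLL4 competes with them for TEAD and so restrains the pathway, and AMOTL2, itself a target, holds YAP outside the nucleus. CCN proteins are secreted into the matrix, where they bind integrins and growth factors. In bone, YAP and TAZ act in osteoblasts and osteocytes, CCN1 and CCN2 in skeletal development, and CCN4 is made by bone-forming cells. YAP and TAZ are controlled mainly after translation, so the level of their own mRNA is not a measure of their activity.

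The letters shown next are the places where the TEAD recognition core GGAATG stands upstream of the start of transcription, since the target genes among the members are defined by TEAD binding. Promoter sequence from RefSeq (GRCm38.p6) covered 300 bases, 250 before and 50 after the start, for 6 members: Yap1, Wwtr1, Vgll4, Ankrd1, Amotl2 and Ccn1. Entries for Ccn2, Ccn3, Ccn4 and Ccn5 are missing. The core was searched on both strands (GGAATG or its complement CATTCC). It was found in 6 of the 6 genes, against 16.6% of the 27025 genes with a promoter in the same table. The AP-1 motif TGANTCA, present in 8.97% of those genes, and the CArG box bound by SRF, present in 1.81%, matched none of the 6. Each line gives 30 bases in the direction of transcription with the core in capitals.
Yap1 (chr9:8004720-8004749, minus strand, core beginning 141 bases upstream, outside annotated transcripts): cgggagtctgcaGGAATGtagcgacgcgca
Wwtr1 (chr3:57576029-57576058, minus strand, 136 or 170 bases upstream of its 2 starts, outside annotated transcripts): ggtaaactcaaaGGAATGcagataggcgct
Vgll4 (chr6:114969268-114969297, minus strand, 82 bases upstream, in an intron of a longer transcript): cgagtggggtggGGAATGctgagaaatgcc
Amotl2 (chr9:102717727-102717756, plus strand, 65 bases upstream, in a UTR of another transcript of the gene): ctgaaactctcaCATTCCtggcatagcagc
Ccn1 (chr3:145650071-145650100, minus strand, 103 bases upstream, outside annotated transcripts): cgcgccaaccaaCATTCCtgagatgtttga
Ankrd1, first match (chr19:36120037-36120066, minus strand, 210 bases upstream, in a UTR of another transcript): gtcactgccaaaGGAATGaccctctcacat
Ankrd1, second match (chr19:36119950-36119979, minus strand, 123 bases upstream, in a UTR of another transcript): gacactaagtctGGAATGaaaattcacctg
These matches describe the letters only; the genes were picked as members of the YAP pathway, and no binding was measured in this study.

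To set the genes side by side, levels were divided by the length of merged exons. Ccn2 had the highest level per length, 68.3 ± 24.5 CPM per kb of exon (SD, n = 22), and lay above Ccn1 (31.7 ± 10.3) in 22 of 22 libraries. Ccn1 in turn lay above Ccn4 (17.4 ± 7.09) in 21 libraries, and Ccn4 above Wwtr1 (11.4 ± 2.89) in 18. Wwtr1 and Amotl2 (11.2 ± 2.13) could not be ordered, with Wwtr1 above in 10 libraries and Amotl2 in 12. Amotl2 was above Yap1 (6.99 ± 1.67) in all 22. Before division by exon length, 6289 bases for Amotl2 and 9257 for Yap1, these genes were at 70.5 ± 13.4 and 64.7 ± 15.5 CPM. Yap1, Vgll4 (6.75 ± 0.677), Ccn5 (6.53 ± 1.76) and Ankrd1 (6.47 ± 8.60) differed by less than their spread between libraries, and the SD of Ankrd1 exceeded its mean. Ccn3 was lowest at 3.81 ± 1.79, yet was above Ankrd1 in 10 of 22 libraries. The coactivator pair and the Hippo-side genes thus lay within a narrow range of levels, while CCN genes occupied both ends of it.

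**Figure D1:**
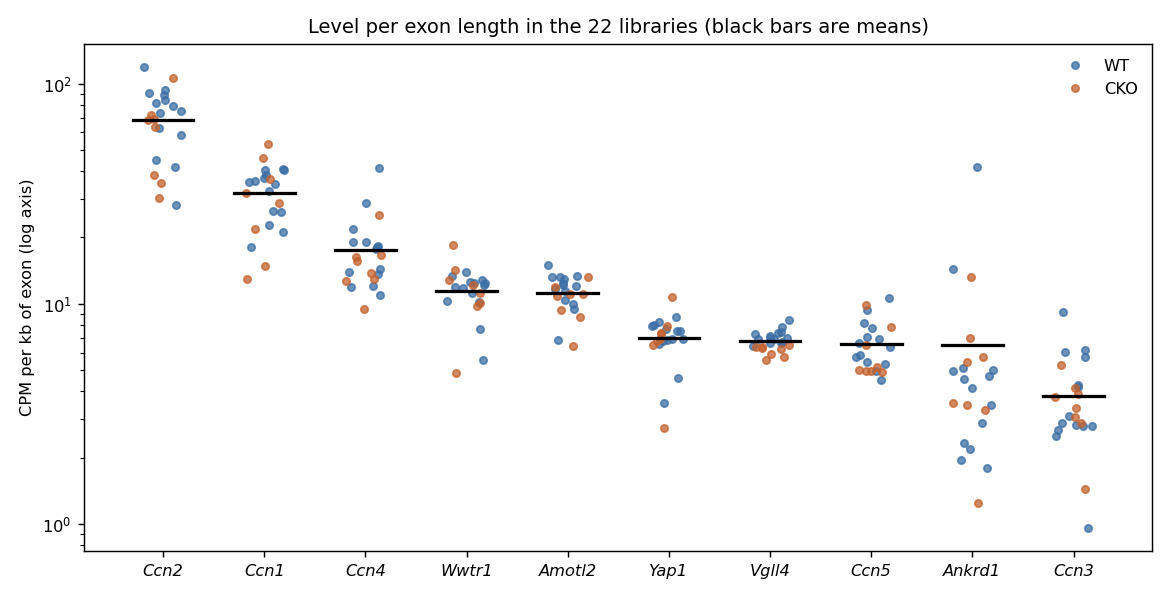
Level per exon length (y axis, CPM per kb of exon, log axis) of the 10 genes (x axis, in order of their mean) in the 22 libraries. Points are libraries, coloured by genotype, and black bars are means; Ccn2 lies highest at a mean of 68.3, and the single high Ankrd1 point at 42.1 is the loaded limb of WT mouse 699.

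Loading was tested first, as the effect that the study's design sets in each animal against its own other limb. None of the 10 genes passed an adjusted p of 0.05 in edgeR's quasi-likelihood test for loading in WT mice, for loading in CKO mice or for the mean of both. Over all genes tested, 0.00532% (1 gene), 0.016% (3 genes) and 0.0905% (17 genes) passed in these comparisons. The fit held the 4 groups and no term for the mouse. At an unadjusted p under 0.05 there was 1 member in each: Ankrd1 in WT (2.34% of all genes), Amotl2 in CKO (3.6%) and Ankrd1 in the mean of both (3.17%). In the fit blocked by mouse, which sets the limbs of an animal against each other, there were 2 in WT (Ankrd1 and Ccn5, beside 3.47% of all genes), 3 in CKO (Amotl2, Ccn1 and Ccn2, beside 5.23%) and 2 over both (Ankrd1 and Ccn2, beside 4.25%), and none passed the adjusted test. DESeq2 called none of the 10 either, against 0.0489%, 0.11% and 0.132% of the genes it adjusted. In WT mice 5 of the 10 log2 fold changes were above 0 (median of the 10, -0.00) beside 47.7% of all genes (median -0.008). In CKO mice 8 of 10 were above 0 (median 0.38) beside 48.3% (median -0.012), and for the mean of both genotypes 7 of 10 (median 0.18) beside 45.7% (median -0.013). CPM of the loaded and non-loaded libraries overlapped for every member in both genotypes, whereas 0.0585% of all genes did not overlap in WT and 2.09% did not in CKO.

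**Figure D2:**
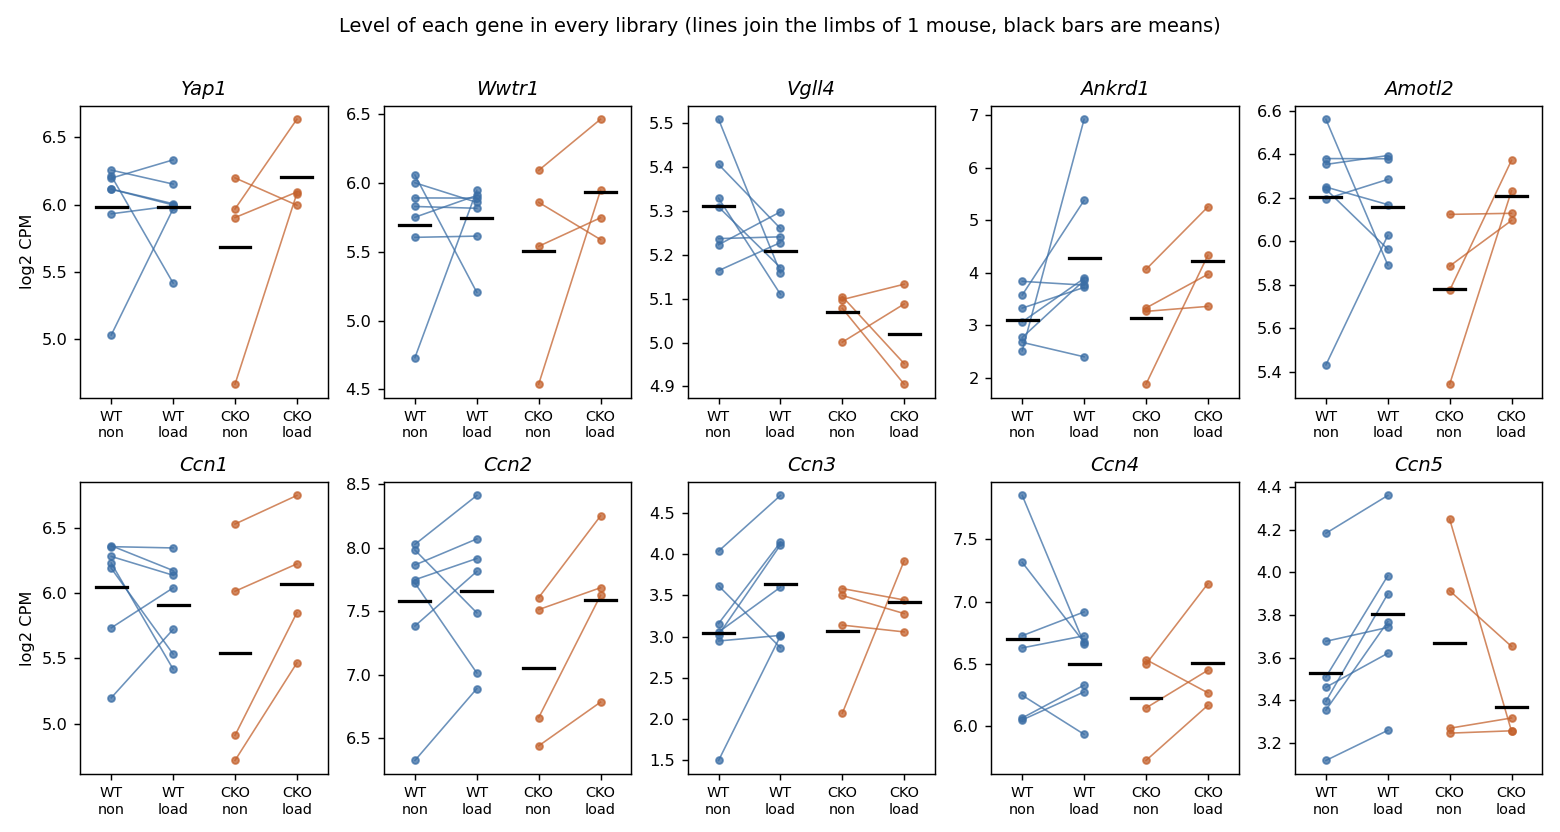
Level of each gene in every library (y axis, log2 CPM, a separate scale in each panel) by genotype and limb (x axis, where non is the non-loaded and load the loaded limb). Lines join the limbs of 1 mouse and black bars are group means; Ankrd1 of WT mouse 699 climbs from 5.64 to 121 CPM, Ccn5 lines of all 7 WT mice slope upward, and the Vgll4 points of CKO non-loaded limbs lie below all those of WT non-loaded limbs.

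Yap1 (ENSMUSG00000053110, chromosome 9, 7931999 to 8004596, minus strand, GRCm38) encodes YAP. Its level in WT mice ranged from 32.6 through a median of 69.2 to 76.3 CPM in non-loaded limbs and from 42.6 through 63.8 to 80.5 CPM in loaded limbs. In CKO mice it was 73.3, 25.3, 59.8 and 62.5 CPM in the non-loaded limbs of mice 688, 691, 693 and 698, and 63.7, 67.7, 68.2 and 99.3 CPM in their loaded limbs. The groups overlapped, and the lowest values belonged to single non-loaded limbs, those of CKO mouse 691 and WT mouse 699. By edgeR the log2 fold change with loading was -0.02 ± 0.20 (SE) in WT, with a 95% interval of -0.44 to 0.40, and 0.44 ± 0.27 in CKO, with an interval of -0.12 to 0.99. Yap1 had its higher value on the loaded side in 3 of 7 WT mice and 3 of 4 CKO mice. The antisense gene Gm20416, which overlaps Yap1, was not analysed here.

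Wwtr1 (ENSMUSG00000027803, chromosome 3, 57455649 to 57575910, minus strand), which encodes TAZ, repeated the pattern of Yap1. It ran from 26.5 through a median of 56.8 to 66.5 CPM in WT non-loaded limbs and from 36.8 through 57.9 to 61.5 CPM in WT loaded limbs. The CKO limbs, in the mouse order given above, measured 58.0, 23.2, 46.4 and 68.1 CPM without load and 48.0, 61.5, 53.6 and 88.0 CPM with load. Here too mouse 691 held the lowest non-loaded and mouse 698 the highest loaded value, and the groups overlapped. The log2 fold change with loading was 0.02 ± 0.21 in WT (-0.42 to 0.46) and 0.36 ± 0.28 in CKO (-0.22 to 0.94). An antisense gene, Gm16016, overlaps Wwtr1 and was not analysed here.

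Differences between the limbs of a mouse in Yap1 and Wwtr1 ran beside those in muscle RNA. In mouse 691 the muscle list took 2.82% of counts in the non-loaded and 12.3% in the loaded limb, and Yap1 differed between its limbs by 1.42 and Wwtr1 by 1.41 on the log2 scale. In WT mouse 699 the muscle list took 4.52% and 9.57%, and the differences were 0.94 and 1.21. In WT mouse 694 muscle went the other way, 10.7% without and 5.61% with load, and the differences were -0.80 for Yap1 and -0.85 for Wwtr1. With muscle and marrow levels as covariates the log2 fold change with loading in CKO mice was 0.10 for Yap1 and -0.02 for Wwtr1, in place of 0.44 and 0.36. Without mouse 691 alone these were 0.25 and 0.15, and without mice 686 and 688 they were 0.68 and 0.57. In a piece of whole bone, fewer cells of a type and less RNA per cell cannot be told apart.

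Vgll4 (ENSMUSG00000030315, chromosome 6, 114860628 to 114969994, minus strand), the competitor of YAP for TEAD, was the steadiest of the 10, with an SD of log2 CPM within groups of 0.09 against 0.28 to 1.01 for the others. WT non-loaded limbs spanned 35.8 to 45.5 CPM with a median of 39.6, and WT loaded limbs 34.5 to 39.3 with a median of 37.4. In CKO mice the non-loaded limbs measured 34.2, 33.7, 31.9 and 34.4 CPM and the loaded limbs 35.0, 29.9, 33.9 and 30.9 CPM. Loading moved it by -0.10 ± 0.06 in WT (-0.23 to 0.02) and -0.05 ± 0.08 in CKO (-0.22 to 0.12) on the log2 scale. These were the narrowest intervals among the members.

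Amotl2 (ENSMUSG00000032531, chromosome 9, 102716672 to 102733418, plus strand), an angiomotin that retains YAP in the cytoplasm, was measured at 43.1 to 94.4 CPM (median 76.1) in WT non-loaded and 59.3 to 84.1 CPM (median 71.9) in WT loaded limbs. The CKO values were 69.7, 40.5, 54.6 and 59.1 CPM without load and 69.9, 75.2, 82.8 and 68.3 CPM with load. Each of the 4 CKO mice had the higher value on the loaded side, by 0.01, 0.89, 0.60 and 0.21 on the log2 scale, so that mouse 688 showed next to no difference. WT mice were divided, with 3 of 7 higher in the loaded limb. The log2 fold change was 0.40 ± 0.18 in CKO (edgeR unadjusted p = 0.0397, adjusted p = 0.739) and -0.07 ± 0.14 in WT. Mouse 691 differed most between limbs both in Amotl2 and in muscle share. Without that mouse the CKO value was 0.28, and with muscle and marrow covariates it was 0.23. The part of muscle RNA in the Amotl2 values was not tested. Without mice 686 and 688 the CKO value was 0.56 (edgeR unadjusted p = 0.0194, adjusted p = 0.368).

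Ankrd1 (ENSMUSG00000024803, chromosome 19, 36111961 to 36120099, minus strand) encodes an ankyrin-repeat protein of the muscle sarcomere and nucleus that is also a standard YAP readout. It had the largest loading estimate of the 10 genes in both genotypes. Non-loaded WT limbs lay between 5.64 and 14.2 CPM (median 8.30). Loaded WT limbs lay between 5.2 and 121 CPM (median 14.4), with mouse 699 at 121 and mouse 686 at 41.5 while the other 5 did not exceed 14.8. CKO limbs measured 9.54, 3.60, 9.97 and 16.6 CPM without and 10.2, 20.1, 15.6 and 38.1 CPM with load. Its loaded limb had the higher value in 5 of 7 WT mice and 4 of 4 CKO mice. In CKO mice 4 members (Ankrd1, Amotl2, Ccn1 and Ccn2) were higher with load in every animal, as were 5.07% of all genes, and no member was lower in every animal, as were 5.9%.

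The fitted log2 fold change of Ankrd1 was 1.83 ± 0.55 in WT (0.69 to 2.96), 3.55-fold, with an edgeR unadjusted p of 0.00302 and an adjusted p of 1 as the 36th smallest p of 18793. In CKO it was 1.08 ± 0.71 (-0.39 to 2.56, edgeR adjusted p = 0.739), and the mean of both genotypes was 1.46 ± 0.45 (edgeR adjusted p = 0.781). The WT value rested in part on 1 animal. Without mouse 699 it was 0.83, and with the mouse as a block it was 1.07 ± 0.49 (edgeR unadjusted p = 0.0486, adjusted p = 0.999). The estimate for both genotypes without mouse 699 was 0.96 (edgeR unadjusted p = 0.00895, adjusted p = 1). Without mice 686 and 688 the Ankrd1 estimate was 1.82 in WT (edgeR unadjusted p = 0.0108) and 1.3 in CKO. Over both genotypes it was then 1.56 (edgeR unadjusted p = 0.0115, adjusted p = 0.767). Mouse 699 also had 9.57% of counts from muscle genes in its loaded and 4.52% in its non-loaded limb. With muscle and marrow covariates the Ankrd1 estimate was 1.98 in WT (edgeR unadjusted p = 0.0018, adjusted p = 0.622) and 0.55 in CKO (edgeR unadjusted p = 0.458, adjusted p = 1). With the block added to these covariates, a fit chosen after seeing the data, it was 1.58 in WT (edgeR unadjusted p = 0.000846, adjusted p = 0.183). In CKO it was then 0.45 (edgeR unadjusted p = 0.318).

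Ccn1 and Ccn2 are the matricellular genes most often read as YAP targets. Ccn1 (ENSMUSG00000028195, chromosome 3, 145646976 to 145649981, minus strand), whose protein binds integrins, spanned 36.6 to 82.2 CPM (median 75.0) in WT non-loaded and 42.7 to 81.3 CPM (median 65.8) in WT loaded limbs. In CKO mice its values were 64.5, 30.0, 92.3 and 26.2 CPM without load and 74.7, 57.6, 107 and 44.1 CPM with load. All 4 CKO mice were thus higher in the loaded limb, by 0.21 to 0.94 on the log2 scale, and 2 of 7 WT mice were. The log2 fold changes were 0.41 ± 0.35 in CKO (-0.30 to 1.13) and -0.15 ± 0.26 in WT (-0.70 to 0.39).

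Ccn2 (ENSMUSG00000019997, chromosome 10, 24595442 to 24598683, plus strand), connective tissue growth factor, had the highest level per length of the 10 genes. WT non-loaded limbs lay between 80.1 and 260.0 CPM (median 215) and WT loaded limbs between 119 and 340.0 CPM (median 225). The CKO limbs gave 182, 101, 195 and 86.7 CPM without and 206, 197, 304 and 110.0 CPM with load. It was higher with load in 4 of 4 CKO and 5 of 7 WT mice, and the groups overlapped widely. The log2 fold change was 0.53 ± 0.37 in CKO (-0.24 to 1.30) and 0.08 ± 0.28 in WT (-0.50 to 0.66). With the mouse as a block the SE in WT mice was 0.16 for each of Ccn1 and Ccn2, in place of 0.26 and 0.28. In CKO mice the blocked edgeR unadjusted p was 0.0247 for Ccn1 and 0.0271 for Ccn2, with an adjusted p of 0.641 for each. Gm15270, antisense to Ccn2, had 15 to 79 counts per library against 2302 to 9954 for Ccn2.

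Ccn3 (ENSMUSG00000037362, chromosome 15, 54745702 to 54754039, plus strand), a CCN protein often opposed in action to CCN2, was the least abundant member. Its WT values were 2.75 to 16.4 CPM (median 8.24) without and 7.22 to 26.2 CPM (median 12) with load, higher with load in 6 of 7 mice, mouse 694 being the exception. CKO limbs were at 11.9, 4.13, 8.74 and 11.2 CPM without and 10.8, 15.1, 8.25 and 9.64 CPM with load, higher in mouse 691 alone. The log2 fold change was 0.59 ± 0.33 in WT (-0.10 to 1.28, edgeR adjusted p = 1) and 0.29 ± 0.44 in CKO (-0.63 to 1.2), where it was -0.14 without mouse 691 and 0.46 without mice 686 and 688. With muscle and marrow covariates the WT value was 0.80 (edgeR unadjusted p = 0.00993, adjusted p = 0.939).

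Ccn4 (ENSMUSG00000005124, chromosome 15, 66891320 to 66923201, plus strand), the Wnt-induced CCN gene of bone-forming cells, varied most among WT non-loaded limbs, from 66.1 to 231 CPM (median 98.8). WT loaded limbs lay between 61.0 and 121 CPM (median 101). The CKO limbs measured 92.6, 52.7, 90.2 and 70.7 CPM without and 76.9, 71.7, 141 and 87.3 CPM with load. Its log2 fold change was -0.31 ± 0.26 in WT (-0.84 to 0.22) and 0.30 ± 0.34 in CKO (-0.40 to 1.01). Osteoblast and osteocyte RNA differed alongside it: the list took 3.41% of counts in the non-loaded limb of WT mouse 685, where Ccn4 was at 231 CPM, and 1.94% in its loaded limb, where Ccn4 was at 101 CPM. Without mouse 685 the WT value of Ccn4 was -0.071, and without mouse 693 the CKO value was 0.128. Without mice 686 and 688 the CKO value was 0.50. The part of bone-cell RNA in the Ccn4 values was not tested.

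Ccn5 (ENSMUSG00000027656, chromosome 2, 163820861 to 163833146, plus strand) encodes the CCN protein that lacks the C-terminal domain of its relatives. Among the members it alone was higher with load in every WT mouse. It lay between 8.62 and 18.1 CPM (median 11) in WT non-loaded and between 9.51 and 20.5 CPM (median 13.6) in WT loaded limbs, and was higher with load in 7 of 7 mice, by 0.06 to 0.50 on the log2 scale. Of all genes tested, 0.628% were higher with load in all 7. In CKO mice the values were 9.58, 15.0, 9.43 and 18.9 CPM without and 9.91, 12.5, 9.50 and 9.48 CPM with load, so that mice 691 and 698 were lower with load and the other two nearly level. The log2 fold change was 0.28 ± 0.18 in WT (edgeR unadjusted p = 0.142, adjusted p = 1) and -0.36 ± 0.24 in CKO (edgeR unadjusted p = 0.156, adjusted p = 0.739). The CKO estimate of Ccn5 was -0.082 without mouse 698. Blocking by mouse left the WT estimate at 0.28 with an edgeR unadjusted p of 0.0357 (adjusted p = 0.999).

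**Figure D3:**
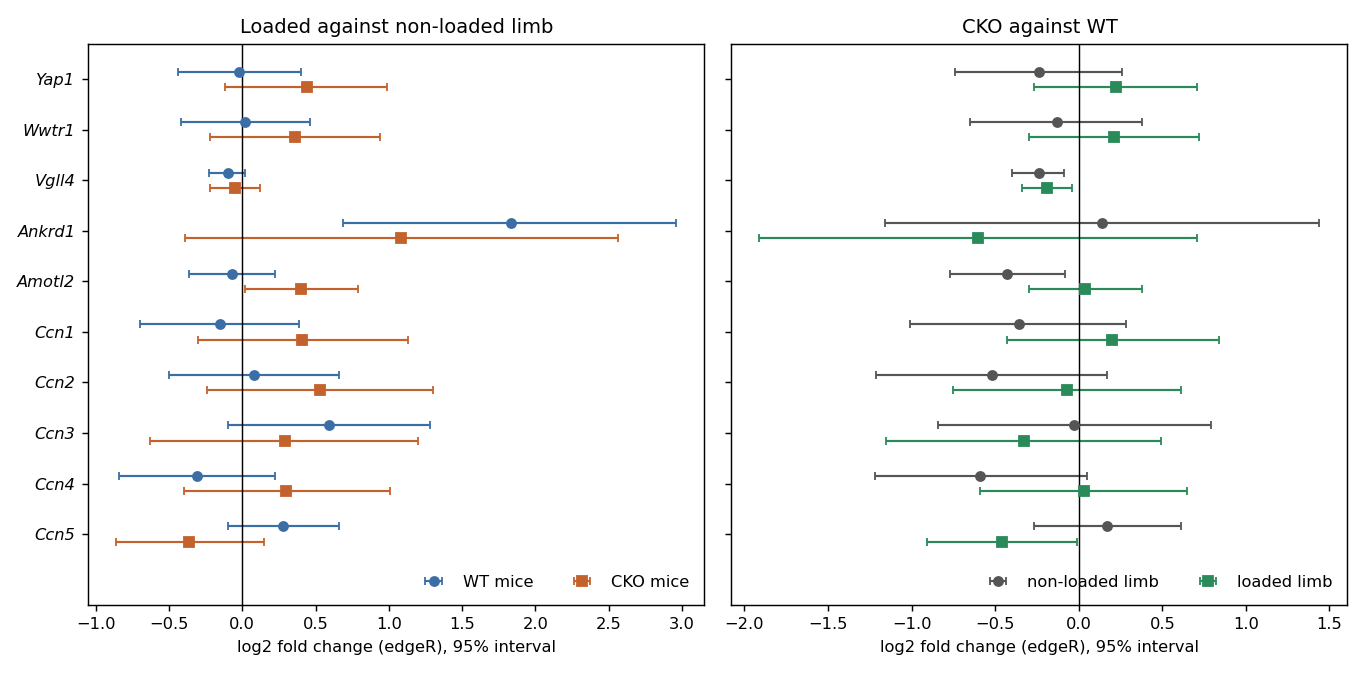
Log2 fold changes (x axis, edgeR estimates) of the 10 genes (y axis), with 95% intervals as bars. The left panel gives loaded against non-loaded limbs in WT (circles) and CKO mice (squares), and the right panel CKO against WT in non-loaded (circles) and loaded limbs (squares); the Ankrd1 interval in WT, 0.69 to 2.96, and the narrow Vgll4 intervals stand out, and no gene passed the adjusted threshold.

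The loading effects of the genotypes were then compared directly, as the CKO minus the WT log2 fold change. No member passed, as 0% of all genes did by edgeR and by DESeq2, and 1 member, Ccn5, had an unadjusted p under 0.05 beside 2.6% of all genes. With the mouse as a block there were 2, Ccn1 and Ccn5, beside 3.98%. For Ccn5 the difference was -0.63 ± 0.30 (-1.26 to -0.00, edgeR unadjusted p = 0.0484, adjusted p = 0.697). In the fit blocked by mouse it was -0.58 (edgeR unadjusted p = 0.012, adjusted p = 0.601), and with muscle and marrow covariates -0.42 (edgeR unadjusted p = 0.156). Without mouse 698 the difference for Ccn5 was -0.355, and 0 members then had an unadjusted p under 0.05. Amotl2 had a difference of 0.47 ± 0.23 (-0.01 to 0.95, edgeR unadjusted p = 0.0545), which was 0.21 with the covariates and 0.65 without mice 686 and 688 (edgeR unadjusted p = 0.0262, adjusted p = 0.367). Ccn4 had one of 0.61, and 0.91 without those mice (edgeR adjusted p = 0.367). Ccn1 stood at 0.57 ± 0.43, and at 0.67 with the mouse as a block (edgeR unadjusted p = 0.0237, adjusted p = 0.601) and 0.36 with the covariates (edgeR unadjusted p = 0.413). The difference for Ankrd1, -0.74 ± 0.88, turned to 0.26 without mouse 699 and was 0.02 with the mouse as a block. With the covariates it was -1.43 (edgeR unadjusted p = 0.124), and with block and covariates together -1.13 (edgeR unadjusted p = 0.058). Counted together, 7 of the 10 differences were above 0 (median 0.40), beside 50.2% of all genes.

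Muscle and marrow levels differed between the loading comparisons. In CKO mice 15 of 15 muscle genes had a log2 fold change above 0 (median 0.55) and 10 of 10 neutrophil genes one below 0 (median -0.58). In WT mice 2 of 15 muscle genes were above 0 (median -0.15) and 5 of 10 neutrophil genes were. Erythroid genes, 10 in all, were above 0 in 10 cases in WT (median 0.38) and in 0 in CKO (median -0.47). None of these genes passed the adjusted test. Muscle genes together took 2.82 to 14.7% of counts in the non-loaded limbs of CKO mice and 11.3 to 15.9% in their loaded limbs, and from 4.52 to 13.5% and 5.61 to 14.6% in the WT limbs.

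Genes elsewhere in the pathway were read in the same fits. Of 23 genes on a Hippo pathway list (kinases, scaffolds, angiomotins and LIM proteins among them), none was called in any comparison. With load 10 of the 23 were above 0 in WT and 14 in CKO (medians -0.02 and 0.08). Among them Frmd6, a scaffold upstream of the kinases, was at 53.4 ± 11.5 and 54.0 ± 6.47 CPM (SD) in non-loaded and loaded WT limbs and at 46.7 ± 9.10 and 60.3 ± 6.21 CPM in those of CKO mice, and Sav1, the adaptor of the kinase pair, differed by 0.10 ± 0.07 with load over both genotypes. TEAD and vestigial-like genes gave 6 tested of 7 listed, 1 above 0 in WT (median -0.11) and 6 of 6 in CKO (median 0.47), none called. Tead1 was at 181 ± 50.4, 175 ± 41.8, 170.0 ± 89.3 and 245 ± 67.5 CPM in the 4 groups in the same order, and Tead4 at 8.05 ± 2.62, 9.48 ± 3.43, 8.44 ± 4.51 and 13 ± 4.92 CPM. The mean level of these 6 genes correlated over the libraries with Wwtr1 at r = 0.96.

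A list of 18 further target genes of YAP and TAZ held none that was called in any comparison. Lats2 and Ptpn14 were on both this list and the Hippo pathway list. With load 8 of 18 were above 0 in WT (median -0.01) and 9 of 18 in CKO (median 0.05). F3, which encodes tissue factor, had a log2 fold change of 0.09 ± 0.23 in WT and 0.68 ± 0.30 in CKO (edgeR unadjusted p = 0.0351, adjusted p = 0.739), and Fjx1, a four-jointed family gene, one of 0.38 ± 0.31 and 0.54 ± 0.42. Of 15 genes of the actin cytoskeleton controlled by SRF, the other transcription factor of mechanical signals, 12 were above 0 in WT (median 0.09) and 8 in CKO (median 0.06), none called. Cnn1, a calponin of contractile cells, was at 1.71 ± 1.03, 2.88 ± 1.09, 1.12 ± 0.336 and 1.96 ± 0.682 CPM in the 4 groups, and the smooth muscle actin gene Acta2 at 63.1 ± 28.8, 75.4 ± 20.1, 47.9 ± 19.1 and 68.2 ± 19.0 CPM.

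Immediate-early genes, which cells switch on within a short time of a stimulus, were the one pathway list of the 5 with genes that passed the test. Over both genotypes 14 of 14 were above 0 (median 0.74, beside -0.013 for all genes) and 3 were called, Fosb, Egr1 and Arc. Their log2 fold changes were 2.06 ± 0.23, 1.30 ± 0.18 and 1.10 ± 0.21 (edgeR adjusted p = 9.03e-05, 0.00176 and 0.0389). On the mean of the list, the loaded limb exceeded its partner in 7 of 7 WT and 4 of 4 CKO mice. In WT mice alone 13 of 14 were above 0 (median 0.40) with none called, and in CKO mice 13 of 14 (median 1.04) with Fosb and Egr1 called.

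Genotype was compared within each kind of limb. Without load 2 of the 10 members were above 0 in CKO against WT (Ankrd1 and Ccn5; median -0.24), beside 49.3% of all genes, and with load 5 were (median -0.02), beside 43.7%. No member passed, as 0% of all genes did by edgeR in either limb, and 2 members were at an unadjusted p under 0.05 in each: Vgll4 and Amotl2 without load (3.04% of all genes) and Vgll4 and Ccn5 with load (6.81%). DESeq2 called none of the members, against 0.0196% (5 genes) and 0.00393% (1 gene) of the genes it adjusted.

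Vgll4 was the one member whose genotypes did not overlap, in non-loaded limbs, where 0.186% of all genes did not. The 4 CKO libraries lay between 31.9 and 34.4 CPM and the 7 WT libraries between 35.8 and 45.5 CPM. The log2 fold change was -0.24 ± 0.07 (-0.40 to -0.09, edgeR unadjusted p = 0.00283, the 28th smallest of 18793, adjusted p = 0.976), or 0.844 times the WT level. In loaded limbs it was -0.19 ± 0.07 (edgeR unadjusted p = 0.0161, adjusted p = 0.601), and there the ranges overlapped, as for every other member (1.23% of all genes did not overlap), 29.9 to 35.0 CPM in CKO and 34.5 to 39.3 in WT. The overlap came from WT mouse 686, at 34.5 CPM, and CKO mouse 688, at 35.0 CPM, the mice whose loaded limbs stood apart in Ltbp2. The other WT loaded limbs began at 35.7 CPM and the other CKO loaded limbs ended at 33.9 CPM. Without mice 686 and 688 the log2 fold changes were -0.25 without and -0.23 with load. With muscle and marrow covariates they were -0.24 and -0.15. Both limbs of a mouse enter these comparisons separately, so they are not independent of each other.

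Amotl2 in non-loaded limbs was -0.43 ± 0.17 in CKO against WT (-0.77 to -0.08, edgeR unadjusted p = 0.017, adjusted p = 0.976), and 0.04 ± 0.16 in loaded limbs. Its 4 CKO values without load, 40.5 to 69.7 CPM, lay below 6 of the 7 WT values, which began at 73.2 CPM; 3 of the 4 were above WT mouse 699, at 43.1 CPM. Without mouse 699 the difference was -0.52 (edgeR unadjusted p = 0.000626, adjusted p = 0.302), and without mouse 691 it was -0.31 (edgeR unadjusted p = 0.0836). The muscle share of those 2 limbs, 4.52% and 2.82%, was the lowest of the 22. CCN genes without load gave -0.36 ± 0.31 for Ccn1, -0.52 ± 0.33 for Ccn2, -0.03 ± 0.39 for Ccn3, -0.59 ± 0.31 for Ccn4 (edgeR unadjusted p = 0.0693) and 0.17 ± 0.21 for Ccn5. Beside the Ccn4 value, 12 of 12 osteoblast and osteocyte genes were below 0 in CKO non-loaded limbs (median -0.67). Ccn5 in loaded limbs was -0.46 ± 0.22 (-0.91 to -0.01, edgeR unadjusted p = 0.046, adjusted p = 0.601). Yap1 and Wwtr1 differed between genotypes by -0.24 ± 0.24 and -0.13 ± 0.25 without load and 0.22 ± 0.24 and 0.21 ± 0.24 with load.

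How the genes varied together was described over the 22 libraries, which come in pairs from 11 mice and share their tissue make-up, so that no p is given. Yap1 and Wwtr1 were the closest pair (Pearson r = 0.94, Spearman rho = 0.62), with r = 0.80 without the 2 libraries farthest from the median of Yap1. Ccn1 and Ccn2 followed (r = 0.87, rho = 0.80), and this value changed little without the 2 farthest libraries (r = 0.82). Amotl2 went with Yap1 (r = 0.81) and with Ccn2 (r = 0.70), though with Yap1 r was 0.45 without the 2 farthest. With Ccn1 and Ccn2, Yap1 had r = 0.50 and 0.49 (0.08 and 0.06 without the 2 farthest libraries) and Wwtr1 had r = 0.29 and 0.31 (both -0.32 without them). In differences between the limbs of the 11 mice these values were 0.81 and 0.78 for Yap1 and 0.75 and 0.77 for Wwtr1. The largest differences in Yap1 were those of mice 691, 699 and 694 (1.42, 0.94 and -0.80). The same mice differed most in the mean of the muscle list (2.72, 1.13 and -1.30). No r of limb differences was computed without them. Vgll4 had r of -0.23 to 0.45 with the other members. Ccn5 was negative with Ccn1 (r = -0.62, rho = -0.61), Yap1 (-0.53) and Ccn2 (-0.49), the only member with several values below -0.4.

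**Figure D4:**
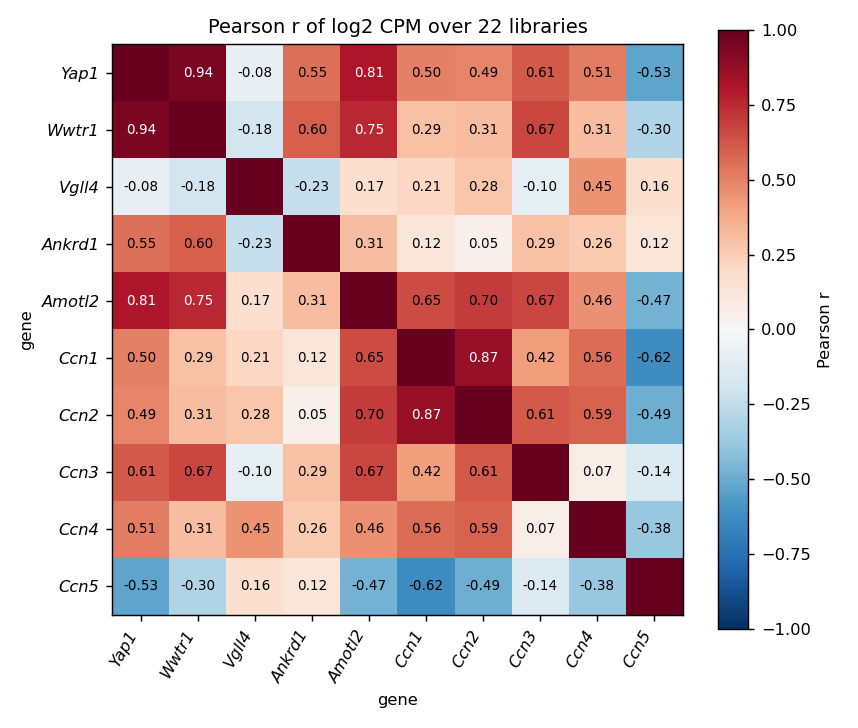
Pearson r of log2 CPM over the 22 libraries for each pair of the 10 genes (both axes list the genes; red is positive, blue negative, and the number in a cell is r). The dark corner of Yap1 and Wwtr1 (0.94), the Ccn1 and Ccn2 pair (0.87) and the blue Ccn5 row are the main features.

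Tissue lists separated the members into groups. Yap1 and Wwtr1 went with the mean level of the skeletal muscle list (r = 0.91 and 0.90, or 0.73 and 0.74 without the 2 farthest libraries). With the list of vascular smooth muscle cells and pericytes r was 0.78 and 0.84 (0.44 and 0.63 without the 2 farthest). With the endothelial list it was 0.58 and 0.75 (0.59 and 0.77). For skeletal muscle, smooth muscle and endothelium in turn, rho was 0.70, 0.82 and 0.78 for Wwtr1 and 0.68, 0.54 and 0.33 for Yap1. Yap1 and Wwtr1 went against the neutrophil list (r = -0.81 and -0.69, or -0.62 and -0.28 without the 2 farthest). Against the erythroid list r was -0.80 and -0.75 (-0.80 and -0.78 without the 2 farthest), and against the B cell list -0.42 and -0.55. Ccn4 went with the osteoblast and osteocyte list (r = 0.93, rho = 0.91; 0.86 without the 2 farthest). Over the libraries Ankrd1 went most closely with the immediate-early list among the 16 lists (r = 0.72, rho = 0.72; 0.68 without the 2 farthest), and had r = 0.60 with the endothelial list and 0.46 with muscle. In differences between limbs its r was 0.65 with the immediate-early list and 0.87 with the list of further YAP and TAZ targets. That r was 0.86 with the adipocyte list and 0.81 with the Hippo pathway list. Ccn5 was positive with the neutrophil list (r = 0.68) and negative with muscle (r = -0.51). Ccn1 and Ccn2 had r = 0.51 and 0.55 with the bone-cell list (0.50 and 0.53 without the 2 farthest). With muscle they had r = 0.41 and 0.34 (-0.03 and -0.17 without the 2 farthest). With the chondrocyte list, of which 6 of 10 genes were tested, their r was 0.59 and 0.72 (0.52 and 0.62 without the 2 farthest). Ccn4 had r = 0.81 with the chondrocyte list (0.87 without the 2 farthest).

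**Figure D5:**
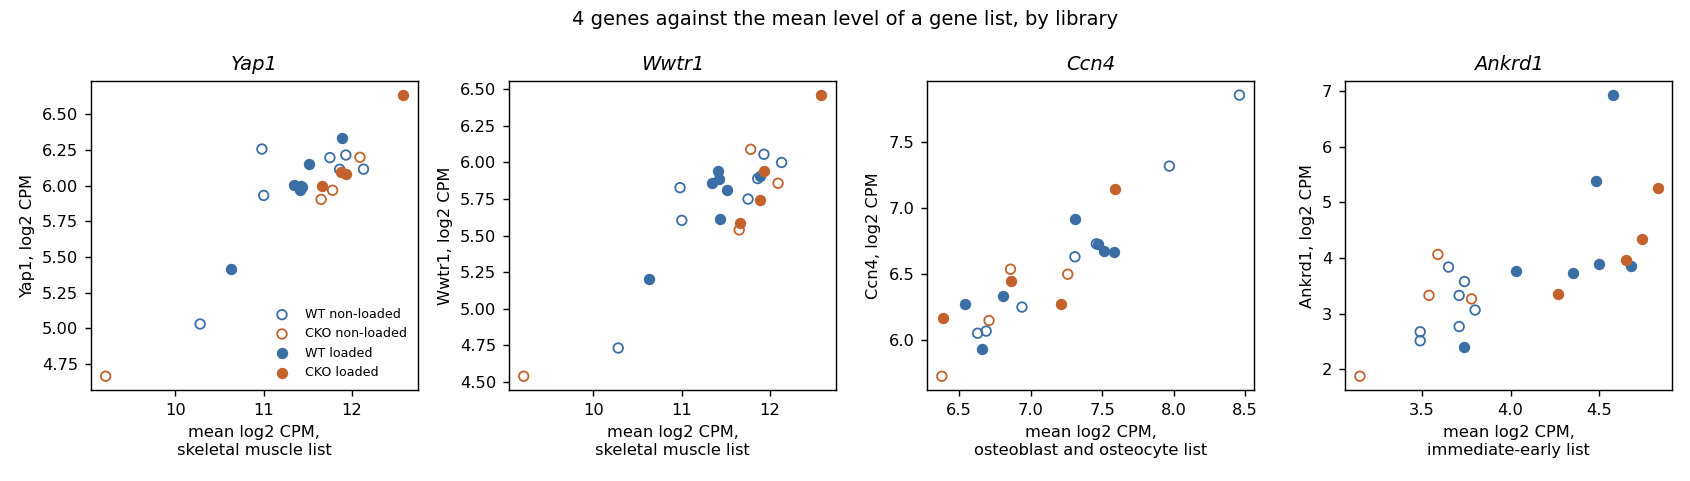
Level of 4 genes (y axes, log2 CPM) against the mean level of a gene list (x axes, mean log2 CPM) in the 22 libraries, open symbols for non-loaded and filled for loaded limbs. Yap1 and Wwtr1 lie along the muscle list (r = 0.91 and 0.90), Ccn4 along the osteoblast and osteocyte list (r = 0.93), and Ankrd1 along the immediate-early list (r = 0.72) with mouse 699 far above.

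For each member the most similar patterns were sought among 13496 tested genes with at least 1 CPM on average. Yap1 was most like Samd4 (r = 0.98), Tulp4 (0.98) and Tom1l2 (0.97), and Wwtr1 most like Mypop (0.97), Lamc1 (0.96) and Ttl (0.96). Amotl2 was most like Ptpn14 (0.92), Rusc2 (0.92) and Phlpp1 (0.90). Ptpn14 is a phosphatase on both the Hippo pathway list and the list of further YAP and TAZ targets. Ankrd1 was most like Mustn1 (0.87), a small nuclear protein of the musculoskeletal system, Pvr (0.86) and Rin1 (0.86). Ccn1 was most like Ccn2 (0.87), Otud1 (0.84) and Depp1 (0.84), and Ccn2 most like Fibin (0.89), the clock gene Per2 (0.89) and Depp1 (0.88). Among the remaining CCN genes, Ccn3 was closest to Eppk1 (0.90), Gfpt2 (0.89) and Prelp (0.88), and Ccn4 to Magi2 (0.96), Srgap1 (0.94) and the osteocyte gene Phex (0.94). Ccn5 was closest to Dram1 (0.88), Aacs (0.87) and Upp1 (0.86). No gene came as near to Vgll4, whose best matches were Cers5 (0.81), Tmed8 (0.79) and Invs (0.79).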

How the data were processed

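Per the labels' protocols, ulnae were pulverized in Trizol and a stranded kit for total RNA was used on 4 ng per library. The authors used STAR, RSEM and GRCm38, per the submitters' processing notes; the sources used here give no version, annotation or strand setting. The deposited expected counts per gene were whole numbers, so rounding changed none. Coordinates and exon lengths come from GENCODE M21 (GRCm38).

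Groups came from genotype and limb labels, with the mouse number as the replicate. edgeR 4.0.16 (R 4.3.3, limma 3.58.1) was run with filterByExpr, TMM scaling, glmQLFit (robust) and glmQLFTest in 1 model of 4 group means over 22 libraries (18 residual degrees of freedom). The common biological coefficient of variation was 0.271. Benjamini-Hochberg adjustment ran over 18793 genes, with calls under 0.05. SE is the log2 fold change divided by the square root of F. Log2 CPM used a prior count of 2. Alternatives included DESeq2 1.42.0; fits were tested on simulated data. Counts measure relative levels only.

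Limbs of 1 number come from 1 animal, so the numbers pair the samples; after subtraction of group means, the correlation between the limbs of a mouse was -0.256 to 0.415 (median 0.189) over 11 mice. Libraries of 1 group differed beyond sampling noise in all 54 pairs (chi-square per gene 25.3 to 501).

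The members and lists were chosen with earlier results of these data known. Named genes were the 10 members; of each of the 5 pathway lists the 2 genes with the smallest p for loading over both genotypes, and any gene called; and for each member the 3 genes with the highest correlation, numbered gene models left out. Ltbp2 was chosen after its values were seen. 11 further lists covered bone cells and 10 other cell types.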

Additional observations from a re-analysis of the deposited data

Results flagged for a closer look

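In 5 of 40 sets of libraries, 1 gene in 1 group each, a single library stood far from the others by Dixon's criterion; chance alone gives about 1 in 20, or 2. Ankrd1 in the loaded limb of WT mouse 699 was at 121 CPM, with the other 6 WT loaded limbs at 5.2 to 41.5 CPM. The non-loaded limb of the same mouse was low for Yap1, at 32.6 CPM beside 60.9 to 76.3, and for Amotl2, at 43.1 CPM beside 73.2 to 94.4. Yap1 in the loaded limb of CKO mouse 698 was at 99.3 CPM, with the other 3 at 63.7 to 68.2 CPM. Ccn5 in the loaded limb of CKO mouse 691 was at 12.5 CPM, with the other 3 at 9.48 to 9.91 CPM. The non-loaded limb of mouse 699 had 4.52% of its counts from muscle genes and the loaded limb of mouse 698 15.9%, the highest of the 22; their part in these values was not tested.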

How the results depend on the processing

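Over all genes, edgeR called 1 gene with load in WT mice, 3 in CKO mice and 17 over both genotypes, against 0 to 18, 0 to 22 and 10 to 56 under the alternatives; CKO against WT gave 0 in either limb, against at most 5 without and 1 with load. No member was called under any of 18 alternative settings, and the lowest adjusted p of any member in any of them was 0.183. That was the edgeR value of Ankrd1 for loading in WT, with the mouse as a block and muscle and marrow covariates. Of 1040 recomputed log2 fold changes, 991 kept their direction and their side of the threshold and 49 turned direction, in 23 of 60 pairs of gene and comparison; the cause was not tested. With the mouse as a replicate block 2 turned, Ccn4 over both genotypes (0.046) and the genotype difference of Ankrd1 (0.02), and no call changed. With muscle and marrow covariates the values that turned were, for loading in WT, Yap1 0.104 and Amotl2 0.016; for loading in CKO, Wwtr1 -0.019 and Ccn3 -0.089; over both genotypes, Ccn4 0.09 and Ccn5 0.028; for the genotype difference in loading, Yap1 -0.004 and Wwtr1 -0.18; for CKO against WT without load, Wwtr1 0.041 and Ccn3 0.23; and with load, Yap1 -0.083, Wwtr1 -0.13 and Amotl2 -0.097. The block together with these covariates, chosen after seeing the data, gave Yap1 0.11, Amotl2 0.025 and Ccn1 0.001 in WT, Wwtr1 -0.003, Vgll4 0.038 and Ccn3 -0.17 in CKO, Ccn4 0.17 over both and Wwtr1 -0.17 for the difference. Without mice 686 and 688 Wwtr1 in WT was -0.011 and Ccn4 over both genotypes 0.042.

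Leaving out 1 mouse at a time, loading in WT ranged from -0.133 to 0.083 for Yap1, -0.13 to 0.15 for Wwtr1 and -0.14 to 0.034 for Amotl2, and loading in CKO from -0.14 to 0.48 for Ccn3. Over both genotypes Ccn4 ranged from -0.091 to 0.121 and Ccn5 from -0.09 to 0.095, and the difference for Ankrd1 from -1.005 to 0.264. For CKO against WT without load the ranges were -0.349 to 0.099 for Wwtr1, -0.25 to 0.42 for Ankrd1, -0.20 to 0.22 for Ccn3 and -0.062 to 0.321 for Ccn5. With load they were -1.056 to 0.318 for Ankrd1, -0.016 to 0.093 for Amotl2, -0.067 to 0.379 for Ccn1, -0.33 to 0.14 for Ccn2 and -0.23 to 0.15 for Ccn4. The lowest count of a member in any library was 79.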

Other observations

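Ccn2 also went with a list of 10 genes of tendon and periosteal fibroblasts (r = 0.73, rho = 0.74 over 22 libraries; 0.57 without the 2 libraries farthest from the median of the list), which took 0.0275 to 0.107% of counts. In differences between the limbs of the 11 mice, Ccn1, Ccn2 and Amotl2 went with the immediate-early list (r = 0.91, 0.88 and 0.88), as did Yap1 and Wwtr1 (r = 0.89 and 0.84), and Yap1 and Wwtr1 went against the neutrophil list (r = -0.96 and -0.95). Muscle RNA differs between the same limbs, and these values are descriptions with no test.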
